A study of Danio rerio with 6 samples.

Results

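The transcriptome of GFP+ cells sorted as MG from injured retinas was compared with that of such cells from uninjured retinas across all named protein-coding genes. MG, the glia that span every layer of the retina, clear glutamate and potassium from the space around neurons, recycle visual pigment and carry water and metabolites. In zebrafish an injury makes MG reprogramme, divide and give rise to progenitors that replace lost neurons, a response that mammalian MG largely lack. The injured group comprised 2 RNAseq libraries of GFP+ cells from adult retinas taken 2 days after needle poke (2 dpi). The uninjured group comprised 2 libraries of GFP+ cells from retinas with no poke, and both groups were purified by FACS. A further pair of injured libraries, with apobec2a and apobec2b knocked down, entered an alternative fit alone. The sample labels give the gfap:GFP line for every library, in which a promoter of the glial filament gene gfap drives GFP. The study's text places the injured cells in another line, in which tuba1a promoter sequence drives GFP in injury-responsive MG and their progeny. The injured columns of the table are named for a control morpholino. Injury, reporter line and control morpholino therefore cannot be told apart. Nothing states whether the libraries of a group came from separate fish, so the p-values measure the spread between these libraries, which may be technical.

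The deposited values were FPKM, the fragments of a gene divided by transcript length and by the size of the library. The table held 27152 gene symbols, of which 18172 were taken as named protein-coding genes. Of these, 13295 reached 1 FPKM in 2 or more of the 4 libraries and were compared. Short RNAs and rows named after clones were left out. A remaining symbol absent from the RefSeq names was taken as protein-coding, and 9557 of the compared genes had a symbol there. In the uninjured cells 819 of the compared genes lay under 1 FPKM in both libraries, so they entered only through their level in injured cells, and 780 of them were called higher. Likewise 263 entered only through uninjured cells, of which 201 were called lower. The call of any such gene named below was favoured by the filter itself. FPKM carry no count, so the depth of each library is unknown here. Among genes above 5 FPKM the libraries of a group differed little, with a median SD of 5.81% of the mean in each group.

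Injured cells differed from uninjured cells in 6702 of the 13295 genes (50.4%) at an adjusted p under 0.05 by limma on log2(FPKM + 1), with 4178 higher (31.4%) and 2524 lower (19.0%) in injured cells. In 10534 genes (79.2%) the libraries of the groups did not overlap. By the rule of the study's methods, at least a 2-fold difference of means with the higher mean above 5 FPKM, 1643 genes (12.4%) were higher and 596 (4.48%) lower. A log2 fold change of 1 is a 2-fold difference of FPKM + 1, which understates the difference in genes of low level. Of the called genes 479 were higher by at least 2 log2 units and 68 lower by as much, counts that include the genes that passed the filter through 1 group only. The median log2 fold change of all these genes was 0.10. The balance between the directions depended on the scaling, with 62.34% of called genes higher for FPKM as deposited, 55.04% after median of ratios scaling and 45.71% after quantile normalization. Counts within the gene lists below stand against the shares of all compared genes, 31.4% higher and 19.0% lower, which hold only for the fit as deposited. Under other settings the counts of all 13295 genes moved too. Quantile normalization gave 3173 higher and 3769 lower, median of ratios scaling 3737 and 3053, and no filter 3206 and 1858. A list's move between settings was not separated from that of all compared genes. Another setting is given where it moved a count by more than 1.5 times and more than 2 genes. The filter above 5 FPKM is left out of this rule, because it tested fewer genes (9461). It moved several counts by more than that, for example the Notch list from 14 of 32 higher to 5 of 17. Leaving out a library lowered the number called to 3598 without injured library a, 3790 without injured library b, 4270 without uninjured library a and 4169 without uninjured library b.

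**Figure D1:**
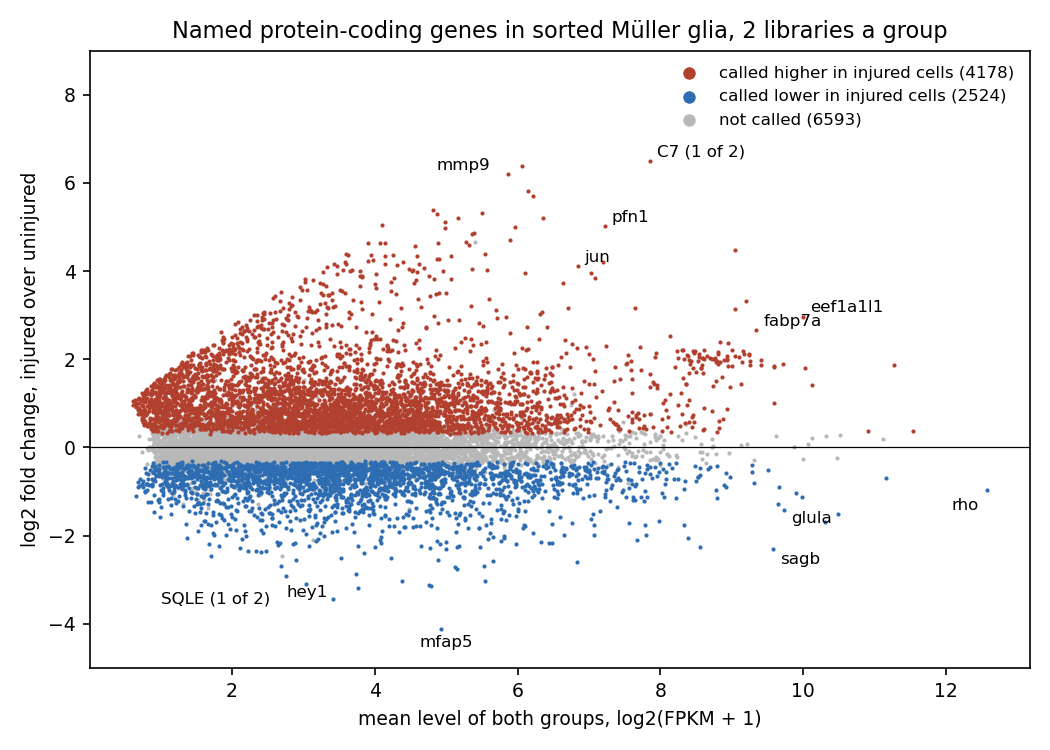
Log2 fold change of injured over uninjured cells (vertical) against the mean level of both groups in log2(FPKM + 1) (horizontal), 1 point for each of 13295 genes, with colour for the call by limma. The red cloud reaches 6.50 log2 units for C7 (1 of 2), whereas the blue cloud ends at -4.12 for mfap5; rho is the gene of highest level.

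To check the label, the libraries were set against markers of the cell types a retina holds. Of 22 listed MG markers 19 passed the filter, among them gfap, glula and rlbp1a. Markers of other cell types passed it too, so passing does not set MG apart. MG markers took 0.740% and 0.721% of the FPKM of all compared genes in injured cells and 0.930% and 0.941% in uninjured cells. The 19 cone markers took 1.88% and 1.93% in injured cells and 2.22% and 2.15% in uninjured cells. The 12 bipolar markers took 0.817% and 0.820% in injured cells and 0.959% and 0.920% in uninjured cells. However, of the compared genes the one of highest FPKM in both groups was rho, the rod opsin, and its level was 3369 and 4934 FPKM in injured cells, against 7954 and 8087 FPKM in uninjured cells. The highest row of each library lay outside the compared genes. It held 19.3% and 21.1% of all FPKM in the injured libraries and 22.8% and 22.1% in the uninjured libraries. The 18 rod markers together took 1.64% and 2.204% of the FPKM of all compared genes in injured cells and 5.43% and 5.62% in uninjured cells. Of these markers 16 fell and nr2e3, a factor that sets rod fate, rose, a call lost without injured library a (adjusted p = 0.0613 by limma), uninjured library a (0.0586) or uninjured library b (0.0523). Microglia and macrophage markers went the other way. Of 25 tested, 23 rose and none fell, with a median of 3.18, the 2 others being cd74a and cd74b, and their summed level was 2169 and 2467 FPKM in injured cells, against 681.5 and 730.0 FPKM in uninjured cells, or 0.594% and 0.654% against 0.220% and 0.234% of the FPKM. Most of each sum was apoeb, which MG make too, with 1478 and 1762 FPKM in injured cells, against 571 and 631 FPKM in uninjured cells. None of these markers was at 0 in all libraries. The 23 calls were kept without any 1 of the libraries. In a bulk sample, fewer cells of a type and less RNA per cell cannot be told apart. The part of rods, microglia and other cells in the results that follow was not tested, and their levels are given beside the groups they bear on.

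The remaining marker lists also moved. Of the 8 neutrophil markers tested 7 rose, and their sum was 79.6 and 61.5 FPKM in injured cells, against 7.98 and 10.6 FPKM in uninjured cells, with 1 listed marker at 0 in all libraries. Pigment epithelium and melanin markers were higher in 6 of 7, summing to 144 and 164 FPKM in injured cells and 40.7 and 43.5 FPKM in uninjured cells. Among them tyrp1b, a melanin enzyme, had 18.4 and 16.4 FPKM in injured cells, against 0.46 and 0.46 FPKM in uninjured cells. Myelin and oligodendrocyte markers were higher in 8 of 9, with mbpa lower, a call lost without uninjured library a (0.0504) or uninjured library b (0.0587) or with no filter (0.0501). Vascular and blood markers were higher in 6 of 8, with cdh5 lower, a call lost without injured library a (0.0556) or uninjured library b (0.0529). The blood level differed between the injured libraries, and the haemoglobin gene hbaa1 had 144 and 362 FPKM in injured cells, against 41.3 and 49.6 FPKM in uninjured cells; its call was lost without uninjured library a (0.0895) or uninjured library b (0.0753) or with no filter (0.103), all adjusted p values by limma. Neuron markers other than those of rods differed by list, and as deposited no bipolar, amacrine or horizontal cell marker was called higher. Ganglion cell and axon markers were higher in 5 of 16 and lower in 3, near the 31.4% and 19.0% of all compared genes, and stmn2b, a microtubule protein of growing axons, was the one of largest rise, with 65.8 and 45.4 FPKM in injured cells, against 15.24 and 17.8 FPKM in uninjured cells (log2 fold change 1.67 ± 0.21). Of 16 amacrine and horizontal cell markers 8 fell, or 4, 2, 6 and 3 without injured library a, injured library b, uninjured library a and uninjured library b, 4 with no filter, and of 12 bipolar cell markers 4 fell, or 1, 2, 1 and 2 with the same libraries left out, 9 after quantile normalization, 8 after median of ratios scaling, 8 with a variance trend, 7 with all 3 groups in the fit, 7 with named genes alone. Cone markers split, with 5 of 19 higher (2, 0, 4 and 2 with the same libraries left out, 1 after quantile normalization, 2 with all 3 groups in the fit) and 7 lower. Only 1 lens or surface epithelium marker was tested and it was not called.

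The largest positive changes included several genes of secreted proteins. C7 (1 of 2) (chromosome 21, 19729379 to 19760478 as the table lists it), named after complement component C7 of the membrane attack complex, had 442 and 468 FPKM in injured cells, against 4.39 and 3.69 FPKM in uninjured cells (log2 fold change 6.50 ± 0.12, SE). The second, fabp11a (chromosome 19, 33519854 to 33522332), encodes a fatty acid binding protein and had 115 and 147 FPKM in injured cells, against 0.63 and 0.49 FPKM in uninjured cells (log2 fold change 6.40 ± 0.16). The third, mmp9 (chromosome 8, 25134454 to 25148890), encodes a secreted gelatinase that cuts extracellular matrix and had 122 and 107 FPKM in injured cells, against 0.70 and 0.44 FPKM in uninjured cells (log2 fold change 6.201 ± 0.14). Every injured library lay above every uninjured library in these genes, which the rule of choice required. Next came grn1, a granulin, with 5.83, lepb, a leptin, with 5.70, TNFRSF11B, a secreted decoy receptor of the Tnf family, with 5.39, and cxcl-c1c, a chemokine, with 5.33. hmox1, which breaks down haem, had 5.29, lgals2a, a galectin, 5.195, and the merged row c1qa,c1qc, C1q chains that microglia make, 5.12. In pmaip1, a Bcl2 family gene that promotes apoptosis, 28.2 and 36.4 FPKM in injured cells stood against 0 in both uninjured libraries. Its listed locus is very short (chromosome 10, 8746744 to 8746979), and in so short a gene a high FPKM can rest on few fragments. By limma the called genes named here had adjusted p values between 0.000527 and 0.000831. Of them fabp11a, mmp9, TNFRSF11B, hmox1 and pmaip1 lay under 1 FPKM in both uninjured libraries and passed the filter only through injured cells. Of the 819 such genes 780 were called higher, so their p-values add little.

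The largest falls included 3 genes of sterol synthesis and 2 of the matrix. mfap5 (chromosome 16, 14421236 to 14440378), a microfibril protein of the matrix, had 3.08 and 1.66 FPKM in injured cells, against 60.05 and 52.61 FPKM in uninjured cells (log2 fold change -4.12 ± 0.24). SQLE (1 of 2) (chromosome 16, 46192806 to 46205093), a squalene epoxidase of cholesterol synthesis, had 1.0 and 0.60 FPKM in injured cells, against 19.0 and 18.0 FPKM in uninjured cells (log2 fold change -3.45 ± 0.14). hey1 (chromosome 19, 33042964 to 33047694), a repressor that Notch signaling switches on, had 1.54 and 1.80 FPKM in injured cells, against 23.4 and 23.5 FPKM in uninjured cells (log2 fold change -3.20 ± 0.10). The libraries of the groups did not overlap in these genes, which the rule of choice required. The amino acid transporter slc38a4 had a log2 fold change of -3.15, the glycerol phosphate dehydrogenase gpd1b -3.11, the matrix protein abi3bp -3.09, atp1b4, of the sodium pump beta family, -3.03, the PDZ and LIM domain protein pdlim2 -2.93 and boka, of the Bcl2 family, -2.75. The sterol enzymes msmo1 and cyp51 had -3.03 and -2.87. The adjusted p values by limma of the called genes named here were between 0.00055 and 0.00155. Of them abi3bp and pdlim2 lay under 1 FPKM in both injured libraries and passed the filter only through uninjured cells.

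**Figure D2:**
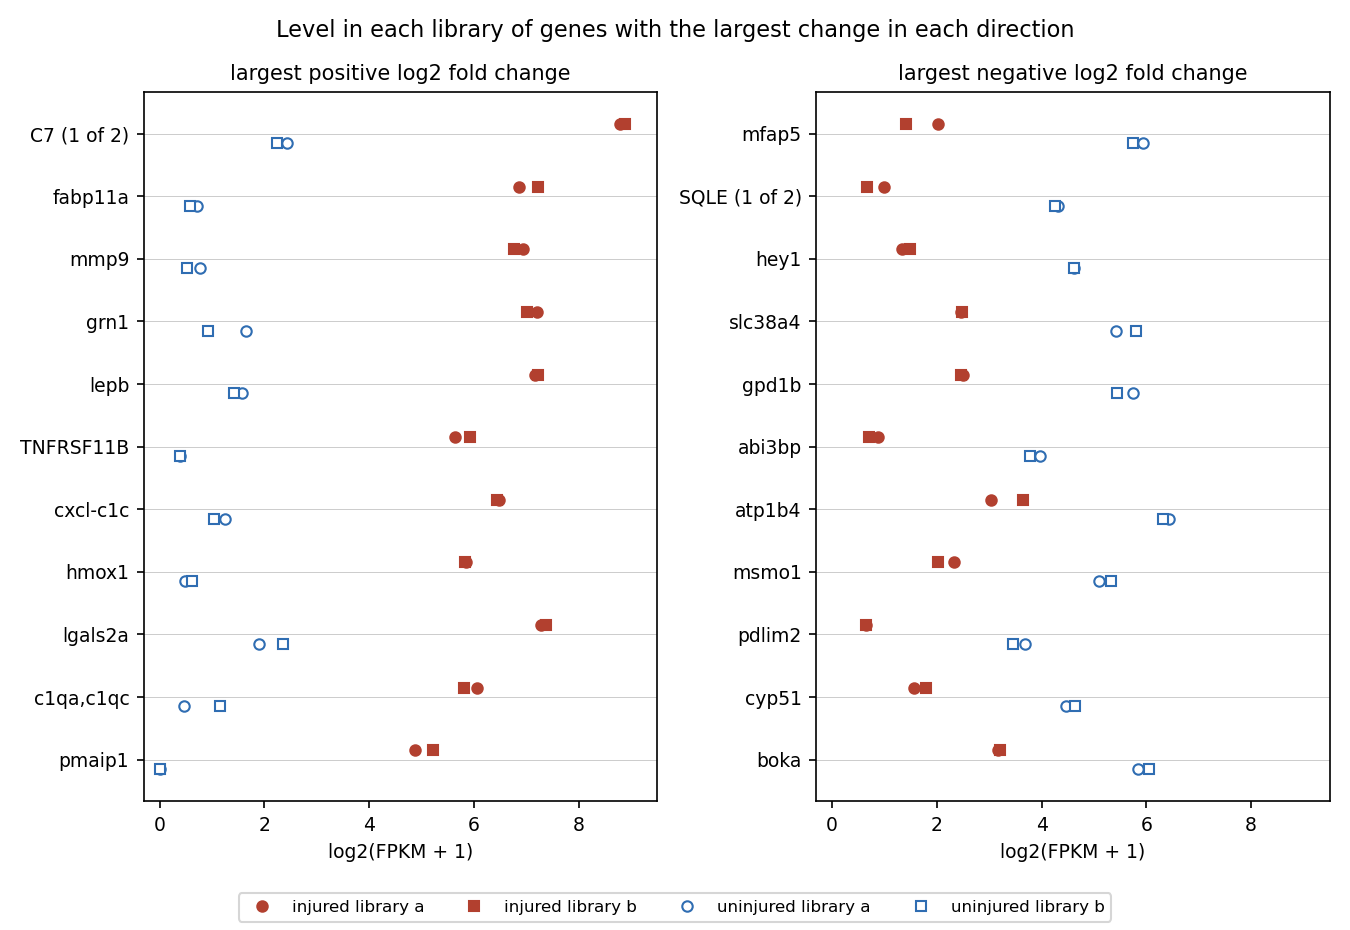
Level in each library, log2(FPKM + 1), of 11 of the 12 genes with the largest positive change (left panel) and 11 of the 12 with the largest negative change (right panel), injured libraries filled and uninjured libraries open. The injured and uninjured points are apart in every gene shown, because only genes without overlap of libraries were chosen.

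MG genes themselves divided into those that rose and those that fell. Of 19 tested, 8 were higher and 9 lower, with fabp7b and sox9b not called. The higher count was 4, 3, 7 and 7 without injured library a, injured library b, uninjured library a and uninjured library b, 4 with no filter. fabp7a, a fatty acid binding protein of radial glia, had 1156 and 1080.1 FPKM in injured cells, against 169.7 and 184 FPKM in uninjured cells (log2 fold change 2.65 ± 0.10). The glial filament genes gfap and vim also rose, while VIM (2 of 2), another row of that name, fell (log2 fold change -1.39 ± 0.13). gfap had 68.3 and 66.7 FPKM in injured cells, against 22.4 and 24.7 FPKM in uninjured cells, and vim had 77.4 and 72.0 FPKM in injured cells, against 17.1 and 17.7 FPKM in uninjured cells. fabp7a, gfap and vim, genes of radial glia and filaments, were only some of the 8 that rose, which also held sox9a. Several genes for the upkeep of neurons fell. glula, glutamine synthetase, which turns glutamate into glutamine, had 466 and 463 FPKM in injured cells, against 1196 and 1280.4 FPKM in uninjured cells (log2 fold change -1.41 ± 0.097). rlbp1a, a retinoid carrier of the visual cycle, had 83.9 and 92.3 FPKM in injured cells, against 357 and 350.4 FPKM in uninjured cells (log2 fold change -1.99 ± 0.10). The gap junction gene cx43 had 9.66 and 9.75 FPKM in injured cells, against 50.2 and 53.8 FPKM in uninjured cells (log2 fold change -2.31 ± 0.097) and the water channel aqp1a.1 27.4 and 30.4 FPKM in injured cells, against 131 and 129 FPKM in uninjured cells (log2 fold change -2.13 ± 0.10). The injured and uninjured libraries did not overlap in any of these, as in every called gene and in 79.2% of all compared genes. The sign of the list's median depended on the settings, being 0.18 as deposited, -0.032 after quantile normalization and -0.846 with the filter above 5 FPKM, which 16 members passed. sox9a, a glial and progenitor factor, had 4.92 and 5.44 FPKM in injured cells, against 2.16 and 2.98 FPKM in uninjured cells and was called (adjusted p = 0.0146 by limma), but not without injured library a (0.0733) or injured library b (0.0894) or with no filter (0.0673).

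Further support genes fell too, of which slc1a2b and cahz belong to the MG marker list counted above. slc6a9 belongs to the amacrine and horizontal cell markers, of which 8 of 16 fell and none rose, and the part of those cells was not tested. slc1a2b, a glutamate transporter, had 58.3 and 63.3 FPKM in injured cells, against 207 and 207 FPKM in uninjured cells (log2 fold change -1.75 ± 0.099). slc6a9, a glycine transporter of amacrine cells and glia, had 29.5 and 33.2 FPKM in injured cells, against 191 and 199 FPKM in uninjured cells (log2 fold change -2.60 ± 0.11), and the water channel aqp4 had 4.46 and 3.17 FPKM in injured cells, against 22.6 and 20.5 FPKM in uninjured cells (log2 fold change -2.24 ± 0.17). Of 18 aquaporins and carbonic anhydrases 8 fell (7, 4, 4 and 4 without injured library a, injured library b, uninjured library a and uninjured library b, 5 with no filter) and 2 rose, aqp7 and ca9, both under 3 FPKM. The carbonic anhydrase genes cahz and ca2, whose enzymes handle carbon dioxide and bicarbonate, had log2 fold changes of -1.12 and -1.12. Amino acid and transmitter transporters were higher in 22 of 70, the 31.4% of all compared genes (10, 12, 14 and 14 with the same libraries left out), and lower in 25 (13, 16, 14 and 13 with the same libraries left out). The largest rises among them were in slc43a3b, with 35.3 and 30.5 FPKM in injured cells, against 0.38 and 0.35 FPKM in uninjured cells (log2 fold change 4.63 ± 0.11), and slc7a7, with 30.2 and 24.6 FPKM in injured cells, against 0.55 and 0.45 FPKM in uninjured cells (log2 fold change 4.24 ± 0.14), a transporter of cationic amino acids. Of the transporters named here, those for glutamate and glycine fell, and the 2 that rose lay under 1 FPKM in uninjured cells. Microglia markers were higher in the same injured libraries, and their part in these rises was not tested.

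Injury-induced signals were next examined, starting with cytokines that act through the gp130 receptor and leptin receptors, which pass their signal to Jak kinases and Stat3. Of 29 tested genes 21 rose and 1 fell, with a median of 1.49. The ligand genes lay under 2 FPKM in uninjured cells. lepb had 142 and 148 FPKM in injured cells, against 1.96 and 1.67 FPKM in uninjured cells, lepa had 20.9 and 23.5 FPKM in injured cells, against 0.24 and 0 FPKM in uninjured cells and crlf1a, a cytokine partner, had 34.8 and 36.4 FPKM in injured cells, against 0.73 and 0.83 FPKM in uninjured cells. The feedback inhibitor socs3a had 90.9 and 85.4 FPKM in injured cells, against 5.50 and 3.59 FPKM in uninjured cells (log2 fold change 4.03 ± 0.19). Chosen after their values were seen, stat3 had 34.8 and 36.7 FPKM in injured cells, against 4.02 and 4.39 FPKM in uninjured cells, the shared receptor il6st 21.3 and 21.0 FPKM in injured cells, against 6.17 and 5.95 FPKM in uninjured cells and jak1 40.7 and 32.8 FPKM in injured cells, against 8.70 and 10.2 FPKM in uninjured cells. The ligand, receptor, kinase and inhibitor genes named here were thus higher in injured cells. stat5.1 was the gene that fell (log2 fold change -0.56 ± 0.15), and its call was lost without injured library a (0.135), injured library b (0.0609), uninjured library a (0.14) or uninjured library b (0.0786), with no filter (0.11), with a pseudocount of 0.1 (0.0503) or with the column index block (0.0654). Adjusted p values of the called genes named here lay between 0.000527 and 0.0353 by limma. lepa and crlf1a lay under 1 FPKM in both uninjured libraries and passed the filter only through injured cells, so their p-values add little.

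EGF family ligands moved unequally. hbegfa, whose shed ligand activates EGF receptors, had 28.5 and 28.3 FPKM in injured cells, against 0.31 and 0.57 FPKM in uninjured cells (log2 fold change 4.36 ± 0.13) and hbegfb had 6.27 and 3.98 FPKM in injured cells, against 0.05 and 0.18 FPKM in uninjured cells (log2 fold change 2.43 ± 0.21). The other ligands nrg1, nrg2b and tgfa fell, with -0.77, -0.55 and -0.64. The call of tgfa was lost with no filter (0.0607), and the number of lower calls in the list was 0, 0, 3 and 1 without injured library a, injured library b, uninjured library a and uninjured library b. egfra, the receptor, had 7.87 and 8.36 FPKM in injured cells, against 10.02 and 9.46 FPKM in uninjured cells and was not called. Immediate early factors, which switch on within minutes of a stimulus in many cells, were mostly higher at 2 dpi, with 14 of 20 higher (9 with no filter) and 2 lower (0, 1, 0 and 0 with the same libraries left out). jun had 219 and 212 FPKM in injured cells, against 11.4 and 11.6 FPKM in uninjured cells (log2 fold change 4.12 ± 0.092), fosl1a 25.7 and 31.9 FPKM in injured cells, against 0.67 and 0.47 FPKM in uninjured cells (log2 fold change 4.24 ± 0.15) and atf3 85.9 and 64.9 FPKM in injured cells, against 2.1 and 2.19 FPKM in uninjured cells (log2 fold change 4.59 ± 0.16). In all 3 the injured libraries lay more than 10-fold above the uninjured ones. fos had 73.0 and 112 FPKM in injured cells, against 9.37 and 12.6 FPKM in uninjured cells (log2 fold change 2.94 ± 0.26), the widest spread of these in injured cells. By limma the called genes named here had adjusted p values between 0.000527 and 0.0172. hbegfa, hbegfb and fosl1a lay under 1 FPKM in both uninjured libraries and passed the filter only through injured cells, so their p-values add little.

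Chemokines, interleukins, Tnf ligands and their receptors were higher in 40 of 62 and lower in 6 (2, 2, 5 and 3 without injured library a, injured library b, uninjured library a and uninjured library b, 2 with no filter). Besides TNFRSF11B and cxcl-c1c, the receptor ccr12.3 was prominent, with 17.8 and 17.7 FPKM in injured cells, against 0.48 and 0.99 FPKM in uninjured cells (log2 fold change 3.45 ± 0.17). The ligand cxcl12b, which guides migrating cells through Cxcr4 receptors, fell, with 2.72 and 2.17 FPKM in injured cells, against 18.1 and 19.2 FPKM in uninjured cells (log2 fold change -2.52 ± 0.12). The list's rise ran beside the microglia and neutrophil markers given above, and their part was not tested. Of 14 interferon response genes 8 rose (5, 7, 7 and 7 with the same libraries left out), among them irf9, part of the complex that reads interferon signals, with 21.5 and 22.1 FPKM in injured cells, against 3.79 and 3.74 FPKM in uninjured cells (log2 fold change 2.26 ± 0.092). Complement and MHC genes were higher in 14 of 19 (8, 9, 12 and 11 with the same libraries left out, 9 with no filter), led by c1qa,c1qc and c1qb (4.34). Matrix metalloproteinases and their Timp inhibitors held mmp9, mmp13a, with 12.27 and 7.58 FPKM in injured cells, against 0 and 0.03 FPKM in uninjured cells, and timp2b, with 45.3 and 36.9 FPKM in injured cells, against 1.58 and 1.51 FPKM in uninjured cells (log2 fold change 4.04 ± 0.13), among 5 of 13 that rose. timp2a, the near relative of timp2b, had 25.3 and 23.4 FPKM in injured cells, against 19.4 and 19.7 FPKM in uninjured cells and was not called.

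Pathways that restrain or pattern MG held genes called in both directions. Of the Notch list 43.75% were called higher and 18.75% lower, against 31.4% and 19.0% of all compared genes. After quantile normalization 8 of 32 were higher, against 3173 of all 13295. With the filter above 5 FPKM 5 of 17 were higher, against 3304 of all 9461. The lower share was thus near that of all compared genes, and the higher share depended on the settings. In the Notch pathway, in which ligands on one cell trigger cleavage of receptors on the next and so induce her and hey repressors, 14 of 32 genes rose (7, 6, 9 and 9 without injured library a, injured library b, uninjured library a and uninjured library b, 8 after quantile normalization, 9 with no filter) and 6 fell. Among the ligands, dla, dlb and dlc rose, with 1.13, 1.06 and 1.08, each at or under 4.03 FPKM in every library, whereas dll4 fell, with 1.55 and 1.63 FPKM in injured cells, against 6.19 and 5.90 FPKM in uninjured cells (log2 fold change -1.44 ± 0.094). Of the fringe enzymes, which modify the receptor, mfng had 11.4 and 11 FPKM in injured cells, against 0.77 and 0.53 FPKM in uninjured cells (log2 fold change 2.89 ± 0.12) and lfng 17.3 and 19.5 FPKM in injured cells, against 68.0 and 67.2 FPKM in uninjured cells (log2 fold change -1.82 ± 0.11). They moved in opposite directions. The receptor notch3 fell, with 2.95 and 3.52 FPKM in injured cells, against 6.0 and 6.22 FPKM in uninjured cells (log2 fold change -0.75 ± 0.11). The targets divided, hey1 falling as given above, her6 (20.3 and 23.8 FPKM in injured cells and 20.0 and 22.2 FPKM in uninjured cells) and her15.1 not called, and her4.1 higher, with 7.0 and 7.11 FPKM in injured cells, against 4.28 and 3.29 FPKM in uninjured cells, a call lost without injured library a (adjusted p = 0.0776 by limma) or injured library b (0.0782) or with no filter (0.0564). Adjusted p values of the other called genes named here lay between 0.00055 and 0.00823 by limma. dla, dlb and mfng passed the filter only through injured cells.

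Of the Fgf ligands, receptors and Mapk feedback genes 13 of 42 were lower (6, 7, 7 and 8 without injured library a, injured library b, uninjured library a and uninjured library b, 7 with no filter) and 5 higher (2, 3, 3 and 2 with the same libraries left out, 2 after quantile normalization). The ligand fgf8a had 0.38 and 0.68 FPKM in injured cells, against 4.95 and 5.09 FPKM in uninjured cells (log2 fold change -1.98 ± 0.13). etv5a and etv5b, factors that Fgf signaling induces, had 32.6 and 23.4 and 23.4 and 23.9 FPKM in injured cells, against 72.7 and 77.7 and 56.4 and 57.6 FPKM in uninjured cells. The phosphatase dusp1 had 99.6 and 103 FPKM in injured cells, against 193 and 205 FPKM in uninjured cells (log2 fold change -0.97 ± 0.096), while spry4, a feedback inhibitor of the same receptors, was higher (log2 fold change 1.39 ± 0.098). In the Bmp, activin and Gdf list 19 of 51 fell (6, 8, 8 and 8 with the same libraries left out, 10 with no filter) and 6 rose (2, 3, 3 and 3 with the same libraries left out, 2 after quantile normalization). bmp1b, a protease rather than a Bmp ligand that the list took in by its symbol, had 1.33 and 1.73 FPKM in injured cells, against 7.88 and 7.43 FPKM in uninjured cells (log2 fold change -1.78 ± 0.12). id1, a direct Bmp target, had 104 and 101 FPKM in injured cells, against 105 and 111 FPKM in uninjured cells and was not called. Receptor gene acvrl1 and effector smad1 rose, with 1.99 and 1.34. Of 27 Wnt genes 7 rose (5, 4, 5 and 6 with the same libraries left out, 4 after quantile normalization, 4 with a pseudocount of 0.1, 4 with no filter) and 4 fell (1, 3, 1 and 1 with the same libraries left out), near the shares of all compared genes. Those that rose included the inhibitor dkk1a, with 6.08 and 6.40 FPKM in injured cells, against 0.05 and 0.04 FPKM in uninjured cells (log2 fold change 2.79 ± 0.093), and the receptor fzd2, with 14.0 and 15.4 FPKM in injured cells, against 1.62 and 1.33 FPKM in uninjured cells (log2 fold change 2.66 ± 0.12). The Wnt list's median was 0.11 but -0.115 after quantile normalization and -0.039 without injured library b. Among Yap and Taz effectors, 4 of 13 rose and 3 fell, near the shares of all compared genes. ctgfa had 46.6 and 49.1 FPKM in injured cells, against 2.61 and 1.37 FPKM in uninjured cells (log2 fold change 4.06 ± 0.23). Its relative ctgfb fell (log2 fold change -1.41 ± 0.14).

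Regulators of reprogramming are the factors that turn MG into multipotent progenitors or mark them. Of 28 tested 18 rose and 3 fell (6 after quantile normalization), and atoh7, neurod, rx1, rx3, six3a and six6b were among the 7 not called. ascl1a, a proneural factor needed for regeneration in zebrafish, had 22.9 and 27.2 FPKM in injured cells, against 0.24 and 1.13 FPKM in uninjured cells (log2 fold change 3.999 ± 0.29). mych, a Myc family gene, had 79.1 and 77.1 FPKM in injured cells, against 2.03 and 1.51 FPKM in uninjured cells (log2 fold change 4.84 ± 0.13), and sox11b had 66.6 and 59.0 FPKM in injured cells, against 7.47 and 7.66 FPKM in uninjured cells (log2 fold change 2.89 ± 0.11). All 3 lay under 8 FPKM in uninjured cells. The RNA binding factor lin28a, which blocks let-7 microRNAs, had 4.72 and 13.1 FPKM in injured cells, against 0 and 0.15 FPKM in uninjured cells (log2 fold change 3.06 ± 0.45), a call lost without uninjured library a (adjusted p = 0.0515 by limma) or with no filter (0.0633), and its injured libraries differed from each other. hmga1a, a chromatin protein, had 239 and 277 FPKM in injured cells, against 87.3 and 85.6 FPKM in uninjured cells (log2 fold change 1.56 ± 0.12). By contrast the eye field genes pax6a, pax6b and rx2 fell, with -0.70, -0.69 and -1.19, and pax6a stayed high, at 129 and 128 FPKM in injured cells, against 210.0 and 208 FPKM in uninjured cells. The wider list of Sox, Klf, Pax and other retinal factors was even, with 19 of 73 higher (12, 12, 15 and 14 without injured library a, injured library b, uninjured library a and uninjured library b) and 19 lower (7, 12, 10 and 12 with the same libraries left out, 32 after quantile normalization). Its most negative member was SOX8 (2 of 2), with 1.87 and 2.89 FPKM in injured cells, against 14.9 and 12.5 FPKM in uninjured cells (log2 fold change -2.13 ± 0.19).

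Genes of cell division rose nearly throughout. Of 57 tested mitotic kinases, spindle and chromosome genes 52 were higher and none lower, with a median of 1.32. Without 1 library the count was 41, 37, 43 and 44 in the order injured a, injured b, uninjured a, uninjured b. cdk1, the mitotic kinase, had 7.22 and 9.21 FPKM in injured cells, against 0.54 and 0.28 FPKM in uninjured cells (log2 fold change 2.71 ± 0.17). plk1, which drives spindle assembly, had 7.94 and 14.2 FPKM in injured cells, against 0.32 and 0.82 FPKM in uninjured cells (log2 fold change 2.91 ± 0.32) and cdca7a 11.7 and 12.5 FPKM in injured cells, against 0.24 and 0.23 FPKM in uninjured cells (log2 fold change 3.41 ± 0.096). Their levels in injured cells lay under 15 FPKM. Both uninjured libraries lay under 1 FPKM in cdk1, plk1 and cdca7a, so these genes passed the filter only through injured cells. Of all compared genes, 819 entered in this way and 780 of them were called higher. How many of the mitotic list did so was not counted, and 16 further matched genes were not tested. With the filter above 5 FPKM 12 of the list's genes were tested, of which 10 were called higher and none lower. In DNA replication 42 of 49 rose and gins1 fell. pcna, the polymerase clamp, had 110.2 and 122.7 FPKM in injured cells, against 23.9 and 23.8 FPKM in uninjured cells (log2 fold change 2.24 ± 0.10), and the helicase subunits mcm4, mcm5 and mcm6 rose by 3.71, 3.50 and 3.35. These subunits passed the filter only through injured cells. The call of gins1 was lost without injured library b (0.0918), uninjured library a (0.125) or uninjured library b (0.0909) or with no filter (0.104), all adjusted p values by limma. Nucleotide synthesis followed, with 29 of 34 higher, such as rrm2, a subunit of ribonucleotide reductase, with 15.5 and 18.1 FPKM in injured cells, against 1.38 and 0.98 FPKM in uninjured cells (log2 fold change 3.03 ± 0.15), and tyms, thymidylate synthase, which passed the filter only through injured cells, with 11.6 and 15 FPKM in injured cells, against 0 and 0.32 FPKM in uninjured cells (log2 fold change 3.63 ± 0.20). The exception was impdh1a, a guanine nucleotide enzyme whose mammalian counterpart photoreceptors express strongly, with 31.1 and 50.3 FPKM in injured cells, against 161 and 156 FPKM in uninjured cells (log2 fold change -1.98 ± 0.25).

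At the entry to S phase 17 of 26 cyclin, Cdk and E2f genes rose (12, 10, 13 and 13 without injured library a, injured library b, uninjured library a and uninjured library b, 10 with no filter). ccnd1, the G1 cyclin, had 36.5 and 35.7 FPKM in injured cells, against 2.47 and 3.92 FPKM in uninjured cells (log2 fold change 3.17 ± 0.19) and cdk2, which passed the filter only through injured cells, 6.28 and 6.59 FPKM in injured cells, against 0.21 and 0.23 FPKM in uninjured cells (log2 fold change 2.61 ± 0.093). The inhibitor cdkn1a, a p53 target that holds cells in G1, rose beside them, with 21.0 and 21.6 FPKM in injured cells, against 1.81 and 1.52 FPKM in uninjured cells (log2 fold change 3.07 ± 0.11). Genes that drive and that hold the cycle were thus higher in the same libraries. Of 34 genes of the p53 response and apoptosis 19 rose and 2 fell. gadd45ba had 198 and 193 FPKM in injured cells, against 67.1 and 76.1 FPKM in uninjured cells (log2 fold change 1.44 ± 0.11) and ccng1 115 and 116 FPKM in injured cells, against 40.2 and 45.2 FPKM in uninjured cells (log2 fold change 1.42 ± 0.11), while tp53inp1 had 4.53 and 6.78 FPKM in injured cells, against 21.1 and 16.5 FPKM in uninjured cells (log2 fold change -1.58 ± 0.22), a call lost with no filter (adjusted p = 0.0514 by limma). DNA repair genes rose in 25 of 41 (9, 9, 12 and 15 with the same libraries left out, 15 after quantile normalization, 15 with no filter). Among histone and DNA modifying enzymes 20 of 49 rose (12, 14, 15 and 15 with the same libraries left out) and 8 fell (1, 1, 2 and 2 with the same libraries left out, 13 after quantile normalization). uhrf1, which copies DNA methylation after replication, had 2.62 and 2.48 FPKM in injured cells, against 0.22 and 0.29 FPKM in uninjured cells (log2 fold change 1.5004 ± 0.097), and hdac1 100.1 and 103 FPKM in injured cells, against 53.3 and 51.9 FPKM in uninjured cells (log2 fold change 0.94 ± 0.093). The adjusted p values by limma of the called genes named here were between 0.000591 and 0.00661. Like cdk2, uhrf1 passed the filter only through injured cells.

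**Figure D3:**
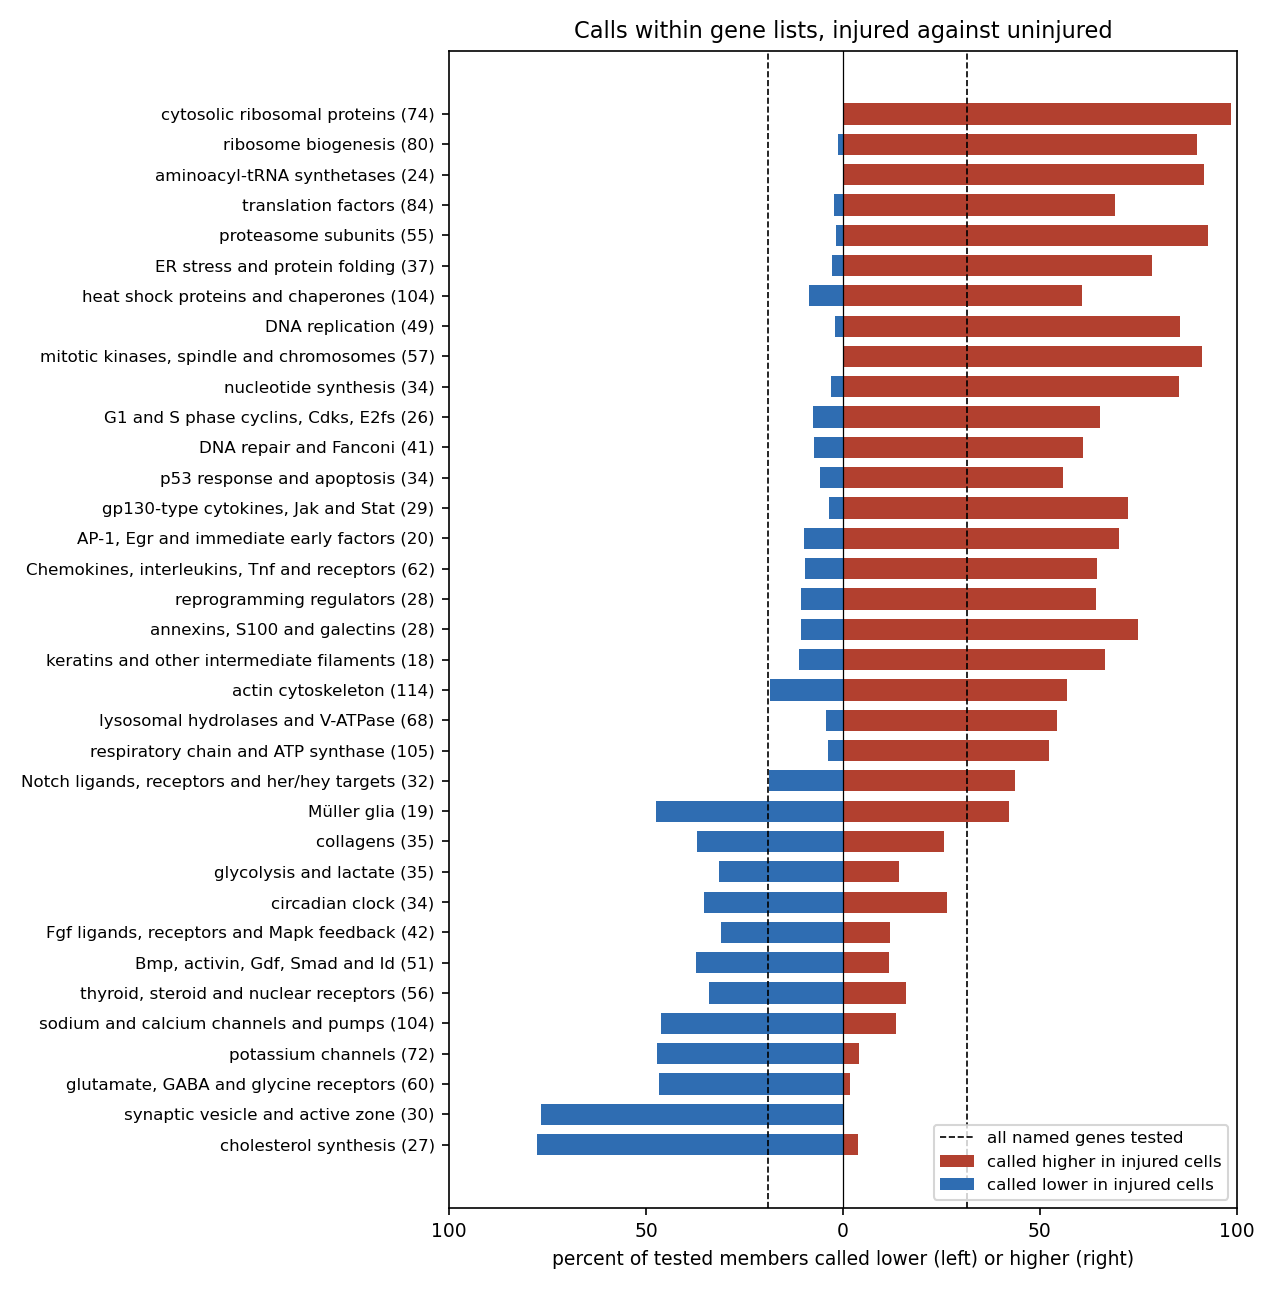
Percent of the tested members of each of 35 gene lists called lower (left, blue) or higher (right, red) in injured cells, with the number tested in parentheses and dashed lines at the shares for all compared genes, 19.0% and 31.4%. Ribosomal, proteasome and mitotic lists lie far right of the dashed line, whereas the cholesterol and synaptic lists lie far left.

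Among the lists, ribosomal proteins had the highest summed level in injured cells. Of 74 cytosolic ribosomal protein genes 73 rose, with a median of 1.998, and 72 or 73 stayed called whichever library was left out. Their FPKM summed to 49606 and 51818 in injured cells, against 12619 and 13261 in uninjured cells, or 13.6% and 13.7% of the FPKM of all compared genes against 4.07% and 4.25%. Many of these genes have near-identical copies, so single members are uncertain. rplp2l had 931 and 970.3 FPKM in injured cells, against 102 and 114 FPKM in uninjured cells (log2 fold change 3.13 ± 0.11), rps12 732 and 793 FPKM in injured cells, against 142 and 147 FPKM in uninjured cells (log2 fold change 2.39 ± 0.10) and rps29 1246 and 1398 FPKM in injured cells, against 371 and 341 FPKM in uninjured cells (log2 fold change 1.89 ± 0.11). In each of these the injured libraries lay above the uninjured ones, as in every gene called higher. The gene not called was rps8b, with 13.3 and 11.9 FPKM in injured cells, against 18.4 and 14.3 FPKM in uninjured cells. Factors that build ribosomes rose in 72 of 80, led by npm1a, nucleophosmin of the nucleolus, with 140.1 and 143 FPKM in injured cells, against 17.1 and 15.9 FPKM in uninjured cells (log2 fold change 3.03 ± 0.098), and nop58, with 40.1 and 38.9 FPKM in injured cells, against 8.33 and 6.77 FPKM in uninjured cells (log2 fold change 2.25 ± 0.13).

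Translation factors rose in 58 of 84. eef1a1l1, the elongation factor that brings tRNAs to the ribosome, had 1812 and 1790.5 FPKM in injured cells, against 237 and 222 FPKM in uninjured cells (log2 fold change 2.97 ± 0.097), the highest level in injured cells of any gene in that list. Its relative eef1a1b fell instead, with 37.4 and 33.2 FPKM in injured cells, against 69.6 and 68.7 FPKM in uninjured cells (log2 fold change -0.95 ± 0.11). eef2b had 496 and 486 FPKM in injured cells, against 109 and 106 FPKM in uninjured cells (log2 fold change 2.18 ± 0.092). Of 24 aminoacyl-tRNA synthetases, which load tRNAs with amino acids, 22 rose and none fell, qars most, with 16.2 and 17.2 FPKM in injured cells, against 3.88 and 4.06 FPKM in uninjured cells (log2 fold change 1.83 ± 0.097). Nuclear pore and transport genes rose in 35 of 51 (22, 24, 30 and 28 without injured library a, injured library b, uninjured library a and uninjured library b), and ran, the GTPase of nuclear transport, had 385 and 399 FPKM in injured cells, against 168 and 169 FPKM in uninjured cells (log2 fold change 1.21 ± 0.092). Splicing genes were less uniform, with 53 of 101 higher (28, 27, 32 and 35 with the same libraries left out) and 11 lower (3, 2, 5 and 5 with the same libraries left out, 19 after quantile normalization, 6 with the column index block). Core snRNP genes such as SNRPG and snrpd3 rose, with 1.72 and 1.501, while the SR factor srsf1b fell, with 78.6 and 71.8 FPKM in injured cells, against 133 and 134 FPKM in uninjured cells (log2 fold change -0.82 ± 0.10). Adjusted p values of the called genes named here lay between 0.00055 and 0.00481 by limma.

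Genes of protein folding and breakdown also rose in large part. Of 55 proteasome genes 51 were higher, and psmb3 and psmb4, of the core particle, had 1.30 and 1.34. The activator subunits psme1 and psme2, which interferon induces in mammals, rose most, psme1 with 44.9 and 43.1 FPKM in injured cells, against 6.07 and 2.42 FPKM in uninjured cells (log2 fold change 3.19 ± 0.37) and psme2 with 30.1 and 23.5 FPKM in injured cells, against 4.17 and 3.37 FPKM in uninjured cells (log2 fold change 2.54 ± 0.17). Heat shock proteins and chaperones rose in 63 of 104 and fell in 9 (2, 5, 4 and 5 without injured library a, injured library b, uninjured library a and uninjured library b). The inducible gene hsp70l had 27.4 and 30.3 FPKM in injured cells, against 1.45 and 1.41 FPKM in uninjured cells (log2 fold change 3.62 ± 0.10), and the constitutive hspa8 and hsp90ab1 had 575 and 600.5 and 500.4 and 458 FPKM in injured cells, against 179.8 and 156 and 179.5 and 171 FPKM in uninjured cells. Near-identical hsp70 copies share reads, so their single values are uncertain. The small heat shock gene hspb6 fell, with 5.51 and 6.32 FPKM in injured cells, against 24.1 and 20.9 FPKM in uninjured cells (log2 fold change -1.76 ± 0.13). In the endoplasmic reticulum 29 of 37 genes rose, including hspa5, its main Hsp70 chaperone, with 114 and 128 FPKM in injured cells, against 18.5 and 16.2 FPKM in uninjured cells (log2 fold change 2.73 ± 0.12), and calrl, a calreticulin, with 26.6 and 26.9 FPKM in injured cells, against 2.39 and 2.41 FPKM in uninjured cells (log2 fold change 3.03 ± 0.091). The gene that fell was chac1, a glutathione-degrading enzyme of the stress response, with 139 and 143 FPKM in injured cells, against 259 and 256 FPKM in uninjured cells (log2 fold change -0.87 ± 0.092). Lysosomal genes rose in 37 of 68. ctssb.1, a cathepsin that macrophages make, had 35.5 and 27.0 FPKM in injured cells, against 0.27 and 0.29 FPKM in uninjured cells (log2 fold change 4.64 ± 0.16). ATP6V0E1, a proton pump subunit, had 116 and 112 FPKM in injured cells, against 4.5 and 2.47 FPKM in uninjured cells (log2 fold change 4.71 ± 0.24), beside the higher microglia markers, whose part was not tested.

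Most genes of cholesterol synthesis fell. Of 27 tested enzymes and regulators 21 were lower and 1, hmgcrb, higher, with a median of -1.19 against 0.10 for all compared genes, and 15, 17, 19 and 19 were called lower without injured library a, injured library b, uninjured library a and uninjured library b. Their FPKM summed to 173 and 179.7 in injured cells, against 432 and 462 in uninjured cells. The fall spanned the pathway. hmgcs1, at its start, had 8.63 and 10.7 FPKM in injured cells, against 37.5 and 59.3 FPKM in uninjured cells (log2 fold change -2.18 ± 0.25). lss, which closes the sterol rings, had 0.85 and 0.81 FPKM in injured cells, against 7.65 and 8.99 FPKM in uninjured cells (log2 fold change -2.34 ± 0.12). msmo1, which trims them, had 4.01 and 3.08 FPKM in injured cells, against 33.1 and 38.9 FPKM in uninjured cells (log2 fold change -3.03 ± 0.16). In each the highest injured library lay under the lowest uninjured library, as in every gene called lower. The next 2 genes were chosen after their values were seen. The lipoprotein receptor ldlr had 0.17 and 0.21 FPKM in injured cells, against 2.74 and 3.17 FPKM in uninjured cells (log2 fold change -1.73 ± 0.11). srebf2, the factor that induces the pathway when sterols are low, had 14.1 and 13.1 FPKM in injured cells, against 26.7 and 23.8 FPKM in uninjured cells (log2 fold change -0.85 ± 0.11). The rise of hmgcrb was small, with 9.13 and 8.33 FPKM in injured cells, against 5.39 and 4.48 FPKM in uninjured cells (log2 fold change 0.72 ± 0.12), and its call was lost without injured library a (0.0756), injured library b (0.0574) or uninjured library b (0.0537). The 5 not called were PMVK, STARD4, insig2, mvd and scap. The listed locus of mvd is very short (chromosome 18, 30957394 to 30957584), and its uninjured libraries had 30.5 and 9.28 FPKM. It shares its name with a second row, which was among the 21 called lower. The apolipoprotein gene apoeb, which microglia and MG make, rose, with 1478 and 1762 FPKM in injured cells, against 571 and 631 FPKM in uninjured cells (log2 fold change 1.43 ± 0.13). By limma the called genes named here had adjusted p values between 0.000794 and 0.0119. lss and ldlr lay under 1 FPKM in both injured libraries and passed the filter only through uninjured cells.

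**Figure D4:**
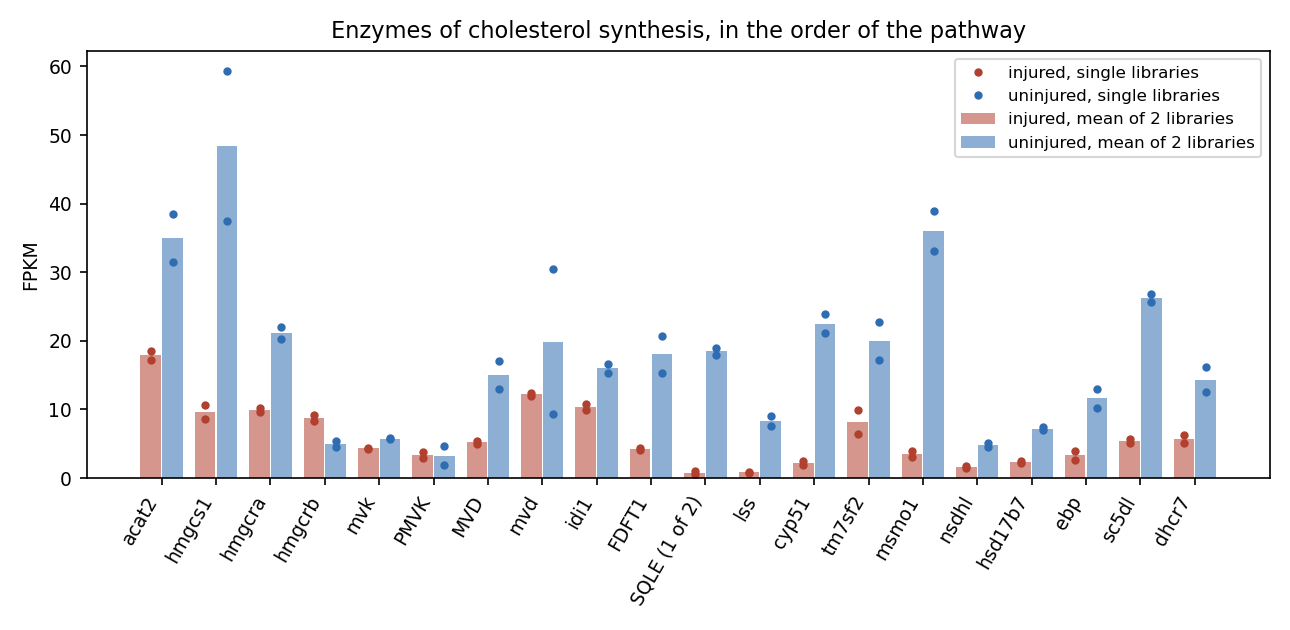
FPKM of 20 cholesterol synthesis enzymes in the order of the pathway, bars for the mean of 2 libraries and points for the libraries, injured left of uninjured for each gene. The injured bar is the shorter in every enzyme but hmgcrb and PMVK, and the 2 uninjured libraries lie far apart for hmgcs1 (37.5 and 59.3 FPKM) and mvd (30.5 and 9.28 FPKM).

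Energy metabolism changed in part. Glycolysis, which photoreceptors and MG both use, had 5 of 35 genes higher (3, 2, 2 and 2 without injured library a, injured library b, uninjured library a and uninjured library b, 2 after quantile normalization, 9 with a variance trend) and 11 lower (6, 7, 7 and 5 with the same libraries left out). hk2, a hexokinase of proliferating cells, had 9.66 and 9.09 FPKM in injured cells, against 0.32 and 0.17 FPKM in uninjured cells (log2 fold change 3.06 ± 0.11), whereas the glucose transporter slc2a1a had 26.3 and 35.3 FPKM in injured cells, against 133 and 148 FPKM in uninjured cells (log2 fold change -2.17 ± 0.17) and eno1b 128 and 129.5 FPKM in injured cells, against 244 and 249 FPKM in uninjured cells (log2 fold change -0.93 ± 0.092). The abundant gapdhs had 1336 and 1280.4 FPKM in injured cells, against 1562 and 1512 FPKM in uninjured cells and was not called. Respiratory chain and ATP synthase genes were higher in 55 of 105, or 12, 12, 16 and 18 with the same libraries left out, 21 after quantile normalization, 35 after median of ratios scaling, 36 with the column index block, with 4 lower as deposited (9 after quantile normalization). Single members moved far more than the list, whose median was 0.36. COX7A2 (2 of 2) had 132 and 145.4 FPKM in injured cells, against 36.0 and 41.3 FPKM in uninjured cells (log2 fold change 1.82 ± 0.12), while ndufs8b had 7.87 and 7.28 FPKM in injured cells, against 46.6 and 52.7 FPKM in uninjured cells (log2 fold change -2.56 ± 0.11) and NDUFA4L2 (2 of 2) 37.6 and 25.7 FPKM in injured cells, against 161 and 129 FPKM in uninjured cells (log2 fold change -2.18 ± 0.23). Mitochondrial ribosomal proteins rose in 58 of 75 (24, 25, 40 and 38 with the same libraries left out, 33 with no filter) and none fell. mrpl27 had 28.8 and 30.0 FPKM in injured cells, against 10.8 and 11.04 FPKM in uninjured cells (log2 fold change 1.35 ± 0.093).

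Other enzymes of small molecules showed large single changes. odc1, which makes putrescine, the first polyamine, had 105 and 96.5 FPKM in injured cells, against 12.34 and 12 FPKM in uninjured cells (log2 fold change 2.95 ± 0.10). ahcy, of the methylation cycle, had 41.6 and 39.8 FPKM in injured cells, against 6.09 and 7.23 FPKM in uninjured cells (log2 fold change 2.45 ± 0.12). Both lay more than 5-fold above the uninjured cells. Antioxidant and iron genes rose in 20 of 37 and fell in 8 (3, 5, 5 and 5 without injured library a, injured library b, uninjured library a and uninjured library b, 5 with no filter). txn, thioredoxin, had 129 and 128 FPKM in injured cells, against 8.68 and 6.24 FPKM in uninjured cells (log2 fold change 3.95 ± 0.17). gpx4b, which repairs lipid peroxides, had 269.9 and 315 FPKM in injured cells, against 77.4 and 76.6 FPKM in uninjured cells (log2 fold change 1.91 ± 0.12) and hmox1 56.8 and 55.6 FPKM in injured cells, against 0.39 and 0.53 FPKM in uninjured cells. In the opposite direction gstp1, a glutathione transferase, had 164 and 175 FPKM in injured cells, against 358 and 341 FPKM in uninjured cells (log2 fold change -1.04 ± 0.099). In retinoid metabolism the shares were near those of all compared genes, 31.4% and 19.0%, since 13 of 37 rose (11, 9, 7 and 9 with the same libraries left out) and 8 fell (4, 6, 5 and 4 with the same libraries left out, 4 with no filter), and the median was 0.18 as deposited but -0.030 after quantile normalization. cyp26a1, which degrades retinoic acid, had 19.9 and 26.6 FPKM in injured cells, against 71.3 and 76.0 FPKM in uninjured cells (log2 fold change -1.63 ± 0.17). stra6, a retinol transporter of pigment epithelium in mammals, had 15.5 and 16.5 FPKM in injured cells, against 0.45 and 1.2 FPKM in uninjured cells (log2 fold change 3.25 ± 0.22), beside higher pigment epithelium markers. The part of those cells was not tested.

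Of 114 actin genes 65 rose and 21 fell (11, 12, 12 and 12 without injured library a, injured library b, uninjured library a and uninjured library b). actb1, a cytoplasmic actin, had 1063 and 1077 FPKM in injured cells, against 109.9 and 102 FPKM in uninjured cells (log2 fold change 3.33 ± 0.099). pfn1, profilin, which feeds actin growth, had 288 and 288 FPKM in injured cells, against 7.42 and 8.48 FPKM in uninjured cells (log2 fold change 5.02 ± 0.11). The gene arpc1b, of the complex that branches actin, and coro1a, a coronin of leukocytes, had 76.5 and 70.5 and 54.9 and 54.0 FPKM in injured cells, against 2.30 and 1.65 and 2.40 and 1.40 FPKM in uninjured cells. Microglia markers were higher in the same libraries and their part was not tested. Tubulin and microtubule genes were higher in 22 of 58 and lower in 9 (2, 4, 4 and 3 with the same libraries left out, 16 after quantile normalization, 4 with no filter), not far from the 31.4% and 19.0% of all compared genes. tuba8l had 86.0 and 89.6 FPKM in injured cells, against 3.01 and 3.44 FPKM in uninjured cells (log2 fold change 4.39 ± 0.11). The gene tubb4b had 871 and 839 FPKM in injured cells, against 205 and 198 FPKM in uninjured cells (log2 fold change 2.08 ± 0.094), and stmn4l 212 and 160.3 FPKM in injured cells, against 21.4 and 18.4 FPKM in uninjured cells (log2 fold change 3.16 ± 0.18). The tubulin list's median was 0.13 as deposited and -0.033 after quantile normalization. Keratins and other intermediate filaments rose in 12 of 18 and fell in 2 (5 after quantile normalization), VIM (2 of 2) with 5.2 and 6.59 FPKM in injured cells, against 16.8 and 17.2 FPKM in uninjured cells. Those that rose included krt8, with 72.4 and 83.2 FPKM in injured cells, against 15.4 and 12.8 FPKM in uninjured cells (log2 fold change 2.38 ± 0.14). Annexins, S100 proteins and galectins rose in 21 of 28, among them lgals3bpb, with 266 and 289 FPKM in injured cells, against 15.5 and 12.6 FPKM in uninjured cells (log2 fold change 4.21 ± 0.14). The adjusted p values by limma of the called genes named here were between 0.000527 and 0.00267.

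Matrix and adhesion genes moved in both directions. Collagens rose in 9 of 35 (6, 5, 8 and 5 without injured library a, injured library b, uninjured library a and uninjured library b, 5 with no filter) and fell in 13 (8, 9, 10 and 10 with the same libraries left out), and col15a1b, of basement membranes, had 12.35 and 10.3 FPKM in injured cells, against 77.5 and 79.8 FPKM in uninjured cells (log2 fold change -2.69 ± 0.12), with COL15A1 (1 of 3) moving the other way (log2 fold change 1.93 ± 0.14). Laminins, integrins and matrix proteins rose in 20 of 48 and fell in 15 (8, 12, 9 and 10 with the same libraries left out). itgb1b, the common integrin beta chain, had 9.39 and 12.01 FPKM in injured cells, against 0.73 and 1.04 FPKM in uninjured cells (log2 fold change 2.63 ± 0.16). fn1b, fibronectin, had 6.80 and 7.56 FPKM in injured cells, against 0.23 and 0.39 FPKM in uninjured cells (log2 fold change 2.64 ± 0.12), whereas the proteoglycan bgnb had 7.80 and 7.62 FPKM in injured cells, against 36.5 and 43.9 FPKM in uninjured cells (log2 fold change -2.24 ± 0.13). ITGB2, an integrin chain of leukocytes, had 18.1 and 19.4 FPKM in injured cells, against 1.14 and 1.11 FPKM in uninjured cells (log2 fold change 3.21 ± 0.096). It belongs to the microglia and macrophage markers given above, and the part of those cells was not tested. Cadherins, claudins and connexins rose in 25 of 122 and fell in 29 (4, 7, 13 and 6 with the same libraries left out, 45 after quantile normalization). The connexins changed unequally, cx32.2 with 24.7 and 26.1 FPKM in injured cells, against 0.70 and 0.88 FPKM in uninjured cells (log2 fold change 3.88 ± 0.11), against the fall of cx43. cdh2, N-cadherin, had 86.7 and 89.1 FPKM in injured cells, against 44.9 and 43.1 FPKM in uninjured cells (log2 fold change 0.98 ± 0.094). In the guidance families 17 of 84 rose and 21 fell (4, 7, 8 and 5 with the same libraries left out, 38 after quantile normalization, 12 with no filter). The receptor epha2 had 7.56 and 9.15 FPKM in injured cells, against 0.46 and 0.45 FPKM in uninjured cells (log2 fold change 2.68 ± 0.12), while rgmd, a repulsive guidance molecule, had 6.71 and 7.58 FPKM in injured cells, against 18.3 and 21.9 FPKM in uninjured cells (log2 fold change -1.37 ± 0.13). Adjusted p values of the called genes named here lay between 0.000527 and 0.00275 by limma. fn1b, cx32.2 and epha2 lay under 1 FPKM in both uninjured libraries and passed the filter only through injured cells.

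Synaptic and channel genes were then examined. Of 30 synaptic vesicle and active zone genes 23 fell (7, 10, 11 and 11 without injured library a, injured library b, uninjured library a and uninjured library b) and none rose. cplx4c, a complexin of ribbon synapses, had 16.9 and 21.6 FPKM in injured cells, against 82.8 and 91.8 FPKM in uninjured cells (log2 fold change -2.13 ± 0.15). pclob, a scaffold of the release site, had 15.5 and 17.5 FPKM in injured cells, against 49.98 and 53.8 FPKM in uninjured cells (log2 fold change -1.60 ± 0.11). Glutamate, GABA and glycine receptors fell in 28 of 60 (13, 19, 21 and 19 with the same libraries left out, 44 after quantile normalization) and 1 rose, grina. The list took in grina by its symbol, and it is not itself a receptor of these transmitters. grin1a, the shared NMDA receptor subunit, had 150.5 and 130.4 FPKM in injured cells, against 292 and 319 FPKM in uninjured cells (log2 fold change -1.12 ± 0.12). Its decrease was larger than the spread of either group. Potassium channels fell in 34 of 72, a count that was lower whichever library was left out. They rose in 3, calls that were not kept without injured library a or injured library b. kcnb2 had 25.9 and 31.7 FPKM in injured cells, against 100.01 and 109 FPKM in uninjured cells (log2 fold change -1.83 ± 0.14). kcnv2a, a photoreceptor subunit, had 61.7 and 64.5 FPKM in injured cells, against 187 and 206 FPKM in uninjured cells (log2 fold change -1.62 ± 0.10). Sodium and calcium channels and pumps fell in 48 of 104 (24, 30, 31 and 29 with the same libraries left out) and rose in 14. Rod markers fell in the same libraries, as given above, and the synaptic list took 0.800% and 0.773% of the FPKM in injured cells and 1.375% and 1.35% in uninjured cells. The part of rods and other neurons was not tested.

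Among rod genes, members of the transduction cascade had more negative changes than the opsin gene, a difference that was not tested. sagb, an arrestin, had 237 and 274 FPKM in injured cells, against 1245 and 1279.7 FPKM in uninjured cells (log2 fold change -2.31 ± 0.12), and pde6a had 122 and 134 FPKM in injured cells, against 596 and 645 FPKM in uninjured cells (log2 fold change -2.27 ± 0.11). gnat1, transducin alpha, had 539 and 662 FPKM in injured cells, against 1905 and 1954 FPKM in uninjured cells (log2 fold change -1.69 ± 0.14). rho had log2 fold change -0.98 ± 0.21 (adjusted p = 0.0204 by limma), a call lost without uninjured library a (0.088) or uninjured library b (0.0934) or with no filter (0.0982). Cone genes did not move together. opn1sw1, the ultraviolet opsin, had 593 and 675 FPKM in injured cells, against 1402 and 1377 FPKM in uninjured cells (log2 fold change -1.13 ± 0.11) and the blue opsin opn1sw2 314 and 361 FPKM in injured cells, against 221 and 198 FPKM in uninjured cells (log2 fold change 0.68 ± 0.12), a call lost without injured library b (0.0704) or uninjured library b (0.0692), after quantile normalization (0.205) and with no filter (0.0516). The bipolar gene cabp5a had 2326 and 2403 FPKM in injured cells, against 2090.1 and 2036 FPKM in uninjured cells and was not called. It had the most positive change of the 12 bipolar markers (log2 fold change 0.20). Of these 4 were called lower and none higher, with a median of -0.36. Thus the cone opsin genes named here moved in both directions as deposited, whereas no bipolar marker was called higher.

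**Figure D5:**
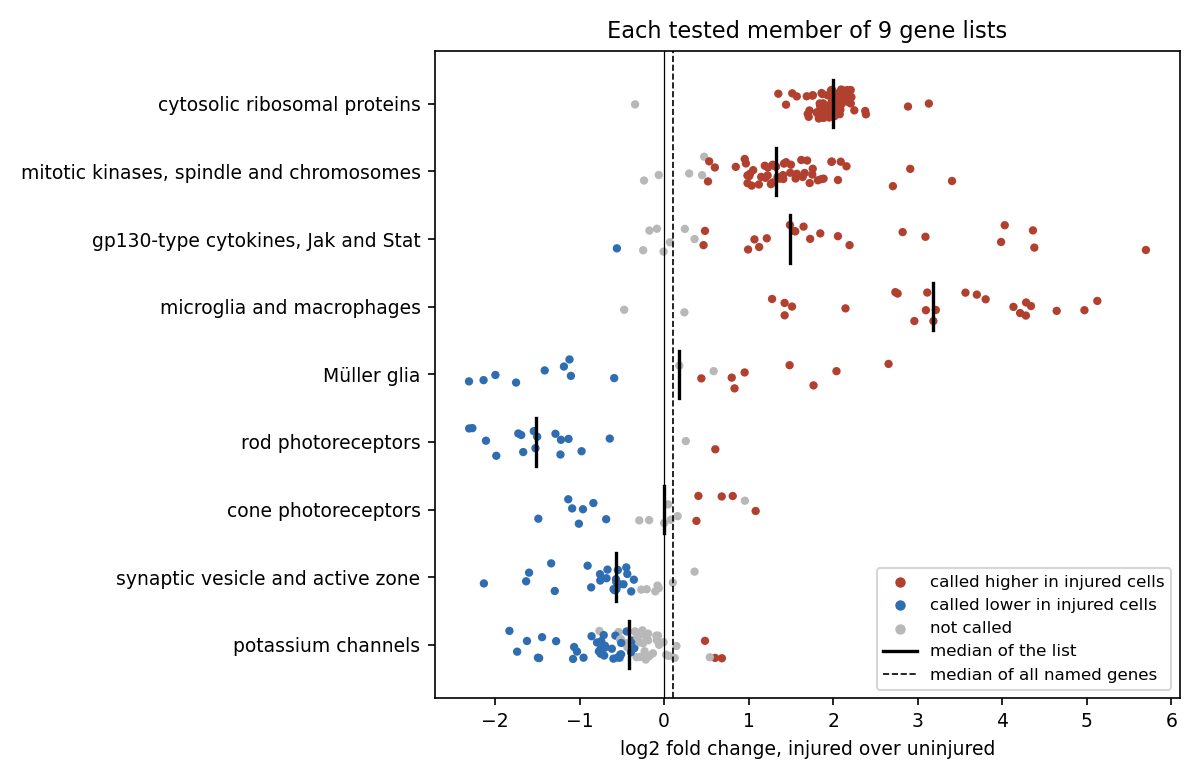
Log2 fold change of injured over uninjured cells (horizontal) for each tested member of 9 gene lists (rows), coloured by call, with a bar at the list's median and a dashed line at the median of all compared genes, 0.10. Ribosomal genes cluster near 2.00 and microglia markers spread up to 5.12, whereas rod markers centre at -1.51 and MG markers fall on both sides of 0.

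Clock and nuclear receptor genes were examined last. Clock genes cycle with the time of day, which the sources used here do not give for either group. Of 34 tested 9 rose (5, 5, 5 and 5 without injured library a, injured library b, uninjured library a and uninjured library b, 5 after quantile normalization) and 12 fell (4, 4, 3 and 5 with the same libraries left out). nr1d4b and nr1d4a, repressors of the Rev-erb family, had 29.0 and 22.01 and 15.8 and 13.4 FPKM in injured cells, against 0.68 and 0.90 and 0.83 and 0.87 FPKM in uninjured cells. cry1a, a light-induced cryptochrome of zebrafish, had 38.4 and 38.9 FPKM in injured cells, against 67.4 and 67.8 FPKM in uninjured cells (log2 fold change -0.79 ± 0.091) and nr1d2b 113 and 118 FPKM in injured cells, against 194 and 186 FPKM in uninjured cells (log2 fold change -0.71 ± 0.095). Members of 1 family thus went in both directions. Nuclear receptors rose in 9 of 56 (5, 6, 6 and 6 with the same libraries left out) and fell in 19 (11, 12, 11 and 12 with the same libraries left out). The estrogen-related receptors esrrgb, esrrd and esrrb all fell, with -1.97, -1.75 and -1.29, and pparg, a receptor of fat cells and macrophages, had 7.69 and 6.41 FPKM in injured cells, against 0.52 and 0 FPKM in uninjured cells (log2 fold change 2.70 ± 0.24). Crystallins, lens proteins of which glia make some, were mostly under the filter, with 5 of 46 tested, of which crybb2 had 20.0 and 25.3 FPKM in injured cells, against 0.22 and 0.08 FPKM in uninjured cells (log2 fold change 4.36 ± 0.15) and cryba4 1.38 and 0.85 FPKM in injured cells, against 15 and 8.29 FPKM in uninjured cells (log2 fold change -2.55 ± 0.31).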

How the data were processed

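RNAseq libraries of FACS-purified GFP+ cells were sequenced by the authors, whose processing notes name CASAVA, TopHat and Bowtie2 without versions. The authors deposited FPKM per gene and library, rounded to 0.01, in a Cuffdiff layout that lists each of 30689 gene rows 3 times. Build and annotation are not given in the sources used here, so loci are as the table lists them. The 6 further columns of per-library values, a second measure of the same libraries, were not used. Means, fold changes, p-values and q-values of the authors' own comparisons were not used either. Columns show a library's group but no replicate number of the labels, and the libraries are called a and b here.

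Rows of 1 symbol were summed. Of the compared genes, 104 came from several rows and 197 from rows that merge overlapping genes, whose values are uncertain, as are those of near-identical copies. The 2 injured and 2 uninjured libraries were fitted on log2(FPKM + 1) by lmFit and eBayes of limma 3.58.1 (R 4.3.3, two-sided). The fit held 16849 symbols of any kind that reached 1 FPKM in 2 or more libraries, and p-values were adjusted over all of these by Benjamini-Hochberg. Values after ± are standard errors. An exact permutation of 2 against 2 libraries cannot go below p = 0.333, so none is given. FPKM are not counts, so no count test was run and the depth per library is unknown.

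Gene lists, 68 in number and holding 2765 tested symbols, and the compared genes were chosen with earlier results of these data known, and lists are described by counts and medians with no set test. Named are the 12 genes with the largest change in each direction among those called, above 5 FPKM in a group mean and without overlap of libraries, and the 10 of highest level in each group. Of each list, up to 4 members of highest level and up to 3 called members of largest change in each direction could be named, with the genes the study names, and others where the text says so or where a count of few members is listed in full. Some genes that these rules name are not reported here. The fit was repeated after quantile normalization and median of ratios scaling, with a pseudocount of 0.1, with a trend in the prior variance, with all 3 groups, with other filters or named genes alone, with the highest row of a symbol, with a block for the table's column index and without each library. The fit of injured against uninjured libraries as deposited was checked on simulated log2 values, and the alternatives were not. Python 3.11.15, NumPy 2.4.6, pandas 2.3.3 and Matplotlib 3.10.9 were also used.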

Additional observations from a re-analysis of the deposited data

How the results depend on the processing

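Without injured library a, injured library b, uninjured library a and uninjured library b, 3598, 3790, 4270 and 4169 genes were called, against 6702 with all libraries, the lone library being assumed to vary like the other group. The genes higher numbered 2541, 2511, 2900 and 2900, and the genes lower 1057, 1279, 1370 and 1269. A 2-fold difference from a mean above 1 FPKM, rather than 5 FPKM, was met by 2485 genes higher and 938 lower. Quantile normalization shifted the median of all symbols to -0.106, against 0.083 as deposited and 0.003 after median of ratios scaling, and changed the sign of the median of the MG list (-0.032), the Wnt list (-0.115), the retinoid list (-0.030) and the tubulin list (-0.033). The MG list's median was -0.846 with the filter above 5 FPKM, where fewer genes were tested, and the Wnt list's -0.039 without injured library b. The cause of the other changes was not tested. The count of lists with more members higher than lower, 44 of 68, stayed within 1.5 times under each alternative.

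Of 231 genes named, 208 were called, and 16 of these lost the call under at least 1 alternative, 7 to 11 of them when a library was left out, 11 with no filter and 1 each with a pseudocount of 0.1, quantile normalization and the column index block. No paired analysis was possible because the columns carry no replicate number of the labels; the block for the table's own column index, with 6052 genes called, pairs no samples by label. With 2 libraries a group, differences smaller than about the spread of these libraries could not be called, and the fragments behind levels under 1 FPKM are unknown.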

Other observations

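Zebrafish carry many genes in paired copies, whose symbols end in a and b. After the values were seen, symbols of the compared genes that differed only in this last letter were paired; some of these pairs are separate genes in mammals. Among 1114 such pairs, both members were called higher in 132, both lower in 126 and the members went in opposite directions in 73. Over all compared genes 31.4% were called higher and 19.0% lower. Whether paired copies split more or less often than unrelated genes was not tested, and the pairs named below were picked from those of widest split. In 479 pairs 1 member was called and in 304 neither. The widest split was ctgfa (4.06) against ctgfb (-1.41), matricellular genes of the Ctgf family. rgs5a, a brake on G protein signals, had 9.37 and 14.4 FPKM in injured cells, against 62.9 and 54.4 FPKM in uninjured cells (log2 fold change -2.23 ± 0.23), and rgs5b 12.8 and 15.3 FPKM in injured cells, against 0.89 and 0.65 FPKM in uninjured cells (log2 fold change 3.09 ± 0.14). slc43a3a had 11.3 and 11.5 FPKM in injured cells, against 19.4 and 20.1 FPKM in uninjured cells (log2 fold change -0.74 ± 0.093), and slc43a3b, of the same transporter family, 35.3 and 30.5 FPKM in injured cells, against 0.38 and 0.35 FPKM in uninjured cells (log2 fold change 4.63 ± 0.11). cbsa and cbsb, enzymes that use homocysteine, had 2.67 and -0.84. The number of pairs opposite and called was 53 of the 73 after quantile normalization, 37 with no filter, and 17, 21, 18 and 19 without injured library a, injured library b, uninjured library a and uninjured library b.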
